A study of Homo sapiens with 26 samples.

Results

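The tumors described here were untreated ZR751 xenografts: 5 mice that were given vehicle and no drug, read as 10 of the 26 RNA sequencing libraries of a study with 13 mice. They were chosen by their labels, without regard to any measured value. ZR751 (ZR-75-1) is a human breast cancer cell line that is hormone receptor positive and HER2 negative per the study's title. The cells were placed under the skin of the back of female NSG mice, a strain that has no mature T, B or NK cells but keeps its other host cells. Dosing began at an average tumor volume of 150 mm3, the vehicle course ran for 3 days (72 hours in the labels, which give the agent as DMSO), and tumors were taken 3 hours after the last dose and frozen. The 5 tumors are of 1 cell line, so they are 5 grafts of the same cancer and not 5 cancers. Each mouse gave a library A and a library B, all of batch 1. The mice are numbered 1-2, 1-4, 1-5, 1-6 and 1-9, and 5 values in a row are in that order throughout. A value for a mouse is the mean of its libraries, in TPM, a relative transcript abundance that accounts for transcript length, so levels of different genes can be set side by side. The mouse was taken as the replicate, and errors are SDs over 5 mice.

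Luminal breast cancer cells resemble the milk duct cells that face the lumen. Their identity rests on the estrogen receptor, encoded by ESR1, together with GATA3 and FOXA1, DNA-binding proteins that open and hold the sites at which the receptor acts. Such cells build their cytoskeleton from the simple epithelial keratins 8, 18 and 19, secrete proteins typical of the gland, and enter the cell cycle through cyclin D1 and its kinase CDK4, which inactivates the RB protein.

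Whether the mice differed was tested gene by gene with limma's moderated F test on log2(TPM + 1), with mouse as the factor and the spread between libraries A and B as the error. The labels do not say where in the work A and B parted, so p-values measure only that spread, which may be technical. Of 13353 genes tested, 7299 differed between mice (54.7%) at a threshold of 0.05 on p adjusted by the Benjamini-Hochberg method across the whole table, with 60.2% among genes with a mean of at least 5 TPM and 72.9% among the 3310 with at least 50 TPM. These shares are the background for every count of members below. Log2 values correlated across genes at 0.991 to 0.994 between the libraries of a mouse and at 0.960 to 0.989 between mice, and each of the 10 libraries had its own mouse's second library as its nearest. Genes are not independent replicates. Mouse 1-5 stood apart: pairs of libraries that included it correlated at 0.960 to 0.982, those that did not at 0.980 to 0.989. The first principal component, with 58.5% of the variance between mice, separated it from mice 1-6 and 1-2, with 1-4 and 1-9 between. Without mouse 1-5, 5456 of 13191 genes tested (41.4%) differed between the other 4 mice. The file holds no read counts, so library depths are unknown and no counting interval is given.

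The labelled cell type was checked against 5 defining genes of luminal cells, all of which were above 60 TPM in every mouse. GATA3 (chr10:8045378-8075203, GRCh38) was at 459, 427, 436, 368 and 395 TPM, or 417 ± 35.7 (SD, n = 5), and ranked 316 of 30332 entries. FOXA1 (chr14:37589984-37596059) was at 215, 227, 237, 209 and 224 TPM, with a mean of 222 ± 10.9. The mice lay close together for both genes. The difference between mice passed the test for GATA3 (adjusted p = 0.00109, limma F test) and not for FOXA1 (adjusted p = 0.103). ESR1 (chr6:151656691-152129619) was at 61.1, 93.9, 193, 61.9 and 156 TPM, with a mean of 113 ± 59.0 and a rank of 1433. Mice 1-5 and 1-9 were high, 1-2 and 1-6 low and nearly equal, and the highest mouse had 3.16 times the level of the lowest (adjusted p = 6.45e-08). Without mouse 1-5 the mean of ESR1 was 93.2 ± 44.4 TPM and the mice still differed (adjusted p = 2.73e-06). KRT8 (chr12:52897187-52949954), at 2800, 2411, 4194, 2962 and 2579 TPM, and KRT18 (chr12:52948871-52952901), at 1663, 1519, 2088, 1898 and 1529 TPM, form the keratin pair of simple epithelia. Both were among the 100 most abundant genes, with means of 2989 ± 705 and 1740 ± 248 TPM. For both, mouse 1-5 was the highest.

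**Figure D1:**
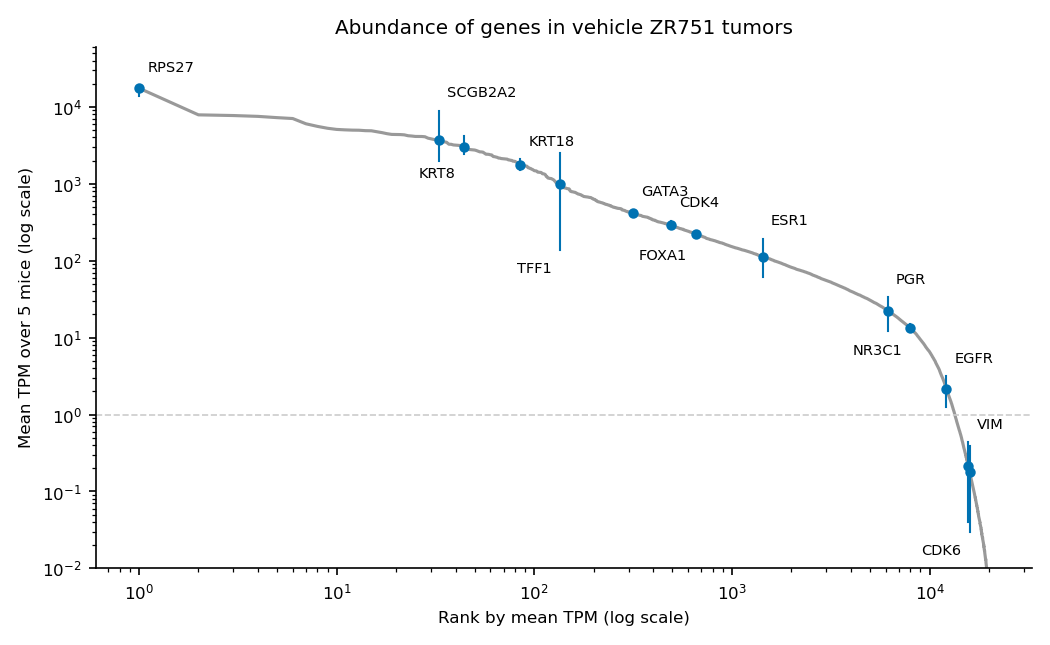
Mean TPM over the 5 vehicle mice against rank, both on log scales, for all genes above 0 (grey line), with named genes as points and their range over mice as vertical bars. The means of GATA3, CDK4, FOXA1 and ESR1 lie between 113 and 417 TPM, those of KRT8 and KRT18 above them, and those of VIM and CDK6 below 1 TPM, the level of the dashed line.

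Of the 30332 entries in the table, 12645 genes reached 1 TPM in every mouse, 8201 reached 10, 1391 reached 100 and 119 reached 1000 TPM. The 10 most abundant genes held 7.84 ± 0.598% of all TPM, the top 100 held 33.2 ± 1.83% and the top 1000 held 64.6 ± 1.27%. The order was led by the translation machinery: 21 of the 25 most abundant genes encoded ribosomal proteins, headed by RPS27 at 17515 ± 2129 TPM, and the others were GAPDH (7872 ± 1304), the translationally controlled tumor protein gene TPT1 (7712 ± 710), the elongation factor gene EEF1A1 (7049 ± 914) and CRIP1 (5024 ± 134). The 87 entries for ribosomal proteins made up 24.5 ± 2.58% of TPM. Their share was at 24.9% or more in the other mice and lower in mouse 1-5. There 23 of 25 ribosomal protein genes on a fixed list were lowest, with 24 under median-of-ratios scaling and 21 under quantile normalization. Over all genes that differed, mouse 1-5 was the lowest for 28.2% as deposited and for 30.1% and 31.3% under those scalings. CRIP1, a small zinc-binding protein of the LIM family, was as abundant as many ribosomal proteins and almost level between mice, at 4849, 5127, 5000.0, 5186 and 4960 TPM (adjusted p = 0.194). Further down, among the 15 most abundant genes that do not encode ribosomal proteins, were SCGB2A2 (mammaglobin), XBP1, KRT8, SLC39A6 (the zinc transporter LIV-1), KRT19 and AZGP1.

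The 18 luminal transcription factors were all at 1 TPM or more in every mouse, 15 of them at 10 or more and 7 at 100 or more. The median of their means was 86.7 TPM. XBP1, the factor that expands the secretory apparatus, was the highest at 2324, 2879, 6058, 3307 and 3445 TPM. Mouse 1-5 stood above the other 4, and the mean was 3602 ± 1441 TPM, or 2989 ± 504 without mouse 1-5. SPDEF, an ETS factor of secretory epithelia, followed at 734 ± 134 TPM, and its levels ran from 608 to 939. The epithelial ETS factors EHF (193 ± 39.4) and ELF3 (191 ± 31.3), TRPS1 (137 ± 18.5), TFAP2B (105 ± 10.2), TFAP2A (64.8 ± 7.19), TFAP2C (49.9 ± 8.73), GRHL2 (64.4 ± 9.74) and MYB (63.5 ± 6.30) formed a middle tier. KLF5 (12.04 ± 3.14), TBX3 (12.2 ± 2.29) and CITED1 (3.73 ± 1.96) were the lowest. Mice differed in 17 of the 18, FOXA1 being the exception, and in 16 without mouse 1-5, when MYB was no longer called (adjusted p = 0.0584). The median ratio of the highest to the lowest mouse was 1.51 over the list.

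Luminal epithelial markers were as uniform in presence. All 16 were at 1 TPM or more in every mouse and 12 were at 100 or more. CDH1 (E-cadherin, the adhesion molecule of epithelia) was at 841 ± 141 TPM, the mucin MUC1 at 689 ± 259, CD24 at 422 ± 55.8 and EPCAM at 403 ± 29.4. Claudins, the seal proteins of tight junctions, were close to one another, with CLDN3 at 198 ± 60.5, CLDN7 at 148 ± 14.5 and CLDN4 at 146 ± 33.2 TPM. The epithelial splicing regulators ESRP2 and ESRP1 were at 127 ± 31.8 and 92.0 ± 5.73, and the polarity gene CRB3 at 46.6 ± 3.06 (adjusted p = 0.0596). The exception in level was KRT7, at 9.57, 13.9, 18.5, 7.24 and 12.6 TPM, against 2272, 2112, 3637, 2191 and 2289 for KRT19. Mice differed in 15 of 16 (14 without mouse 1-5). Mouse 1-5 was the highest for 12 of the 16, and for the same number under both scalings. Over all genes that differed it was the highest for 41.4% as deposited, 39% under median-of-ratios scaling and 35.5% under quantile normalization. For KRT19 the other 4 mice lay between 2112 and 2289 TPM, and without mouse 1-5 the difference did not pass the test (adjusted p = 0.217).

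**Figure D2:**
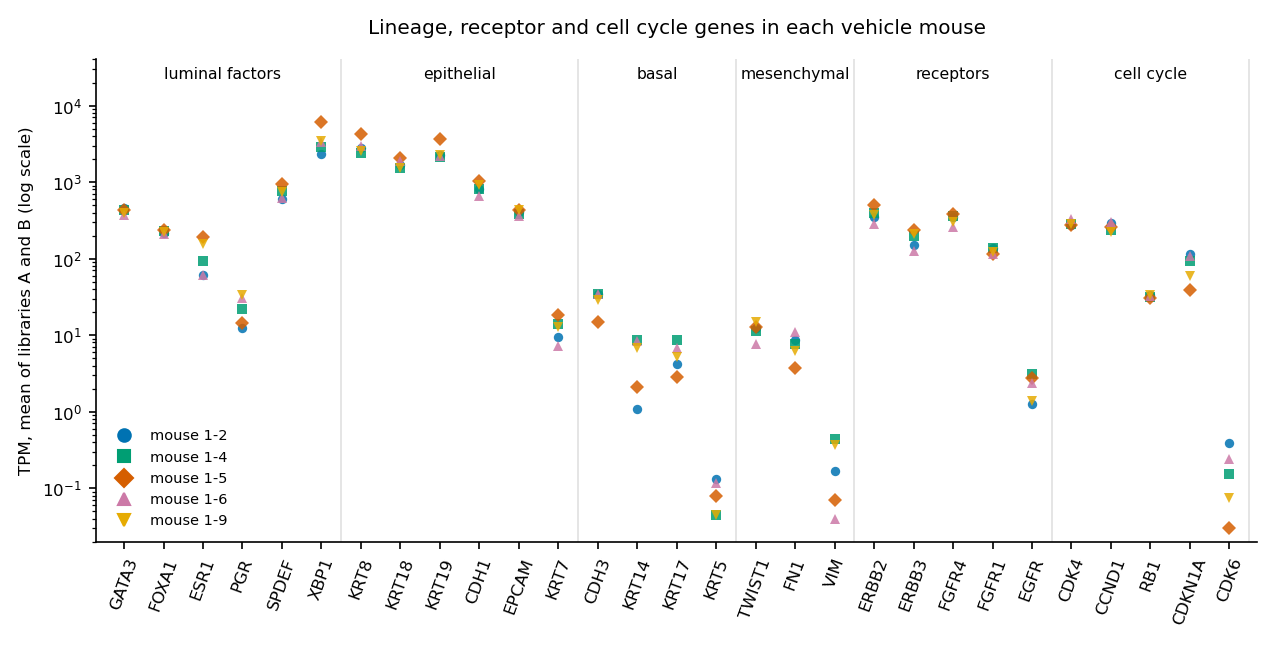
TPM of 29 lineage, receptor and cell cycle genes in each of the 5 vehicle mice (log scale; 1 symbol per mouse, mean of libraries A and B). Luminal and epithelial genes lie between 7.24 TPM (KRT7 in mouse 1-6) and 6058 TPM (XBP1 in mouse 1-5), whereas KRT5, VIM and CDK6 stay below 1 TPM in every mouse.

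Markers of luminal progenitors, the less mature cells of the duct, were low. ELF5 was at 7.47 ± 1.11 TPM, ALDH1A3 at 5.12 ± 1.57, PROM1 at 4.37 ± 1.73, LTF (lactoferrin) at 2.74 ± 0.832, CD14 at 1.32 ± 0.390 and the stem cell factor receptor KIT at 0.163 ± 0.220. The antiprotease gene SLPI, at 59.8 ± 15.0, and the progenitor factor SOX9, at 39.6 ± 7.55 TPM, were the 2 of 8 above 10 TPM in every mouse. The median of means over the 8 genes was 4.75 TPM.

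Basal and myoepithelial genes, which mark the contractile outer layer of the duct, were low: 12 of 19 were at 1 TPM or more in every mouse, 2 of them at 10 or more, and 6 were below 1 TPM in every mouse. KRT6A, the smooth muscle gene CNN1 and SOX10 were listed at 0 in all 10 libraries. KRT5 (0.0830 ± 0.0391 TPM), the basal factor TP63 (0.104 ± 0.0601) and KRT6B (0.0300 ± 0.0348) were near 0. The 30 genes of a list that every cell uses were all at 10 TPM or more in every mouse. The basal keratins KRT14, KRT16 and KRT17 had means of 5.40 ± 3.56, 4.63 ± 3.08 and 5.48 ± 2.21 TPM. KRT14 was at 1.08, 8.49, 2.10, 8.48 and 6.82, KRT16 at 1.605, 5.96, 1.23, 8.26 and 6.11. Both were low in mice 1-2 and 1-5 and higher in the other 3. ITGB4, the integrin of hemidesmosomes (42.4 ± 7.91 TPM), P-cadherin CDH3 (29.2 ± 8.43) and the laminin chain LAMB3 (18.9 ± 6.52) were the highest of the 19, and all were lowest in mouse 1-5. The list did not move as one. Of its 13 tested members, mouse 1-5 was the lowest for 7 and the highest for 2, which are not reported here by name. Over all genes tested, mouse 1-5 was the lowest for 24.9% and the highest for 34.0%. The median of means of the list was 3.27 TPM. Mice differed in 10 of 13 tested members and in 8 of 13 without mouse 1-5.

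Of 11 mesenchymal genes none reached 10 TPM in every mouse. VIM (vimentin, the mesenchymal filament protein) was at 0.165, 0.440, 0.0700, 0.0400 and 0.365 TPM, ZEB1 at 0.161 ± 0.0678 and ZEB2 at 0.947 ± 0.404. SNAI2 was listed at 0 throughout and SNAI1 was at 0.694 ± 0.233. The members that were present were TWIST1 (11.8 ± 2.70), the matrix genes SPARC (8.14 ± 1.76) and FN1 (7.46 ± 2.75), CDH11 (2.69 ± 1.30), TWIST2 (1.33 ± 0.584) and N-cadherin CDH2 (1.09 ± 0.462). Mice differed in all 6 of those tested, and in 5 without mouse 1-5, when the adjusted p of CDH2 went from 0.0455 to 0.222.

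The secreted proteins of the gland ranged from abundant to not detected. Of 16 members, 6 were at 100 TPM or more in every mouse and 4 were listed at 0 throughout. The milk genes CSN1S1, CSN2, CSN3 and LALBA, which are known for lactation, were listed at 0 in all 10 libraries. The abundant members were led by the mammaglobin gene SCGB2A2 (3738 ± 2892 TPM), the zinc-binding glycoprotein gene AZGP1 (2370 ± 1545) and the disulfide isomerase gene AGR2 (1473 ± 387). TFF1 (988 ± 941), the lipophilin gene SCGB1D2 (642 ± 634) and TFF3 (296 ± 110) followed. PIP had a mean of 141 ± 198 TPM, or 52.5 ± 22.1 without mouse 1-5. SCGB2A2 and SCGB1D2 lie close together on chromosome 11. The 250 bases before the start of 4 of the secreted-protein genes are shown because these 4 stood highest in mouse 1-5. That choice was made after their values were seen. PIP was above 100 TPM only in mouse 1-5. TFF1, TFF3 and AGR2 are not shown. They are from RefSeq, build GRCh38.p14, on the gene's strand, 5′ to 3′, and capitals mark matches to the motifs named after them. SCGB2A2 is at chr11:62269908-62270157, plus strand, SCGB1D2 at chr11:62241989-62242238, plus strand, PIP at chr7:143131827-143132076, plus strand, and AZGP1 at chr7:99976032-99976281, minus strand.
SCGB2A2: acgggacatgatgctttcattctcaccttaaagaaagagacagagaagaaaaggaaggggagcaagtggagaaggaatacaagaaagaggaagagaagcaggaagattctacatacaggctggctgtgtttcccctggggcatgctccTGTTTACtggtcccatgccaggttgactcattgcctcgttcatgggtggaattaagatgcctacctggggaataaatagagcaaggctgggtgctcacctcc
SCGB1D2: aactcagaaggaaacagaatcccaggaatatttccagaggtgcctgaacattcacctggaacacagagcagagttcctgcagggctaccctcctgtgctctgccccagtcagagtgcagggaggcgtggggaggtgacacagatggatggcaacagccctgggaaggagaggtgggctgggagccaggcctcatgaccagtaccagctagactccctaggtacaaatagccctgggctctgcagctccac
PIP: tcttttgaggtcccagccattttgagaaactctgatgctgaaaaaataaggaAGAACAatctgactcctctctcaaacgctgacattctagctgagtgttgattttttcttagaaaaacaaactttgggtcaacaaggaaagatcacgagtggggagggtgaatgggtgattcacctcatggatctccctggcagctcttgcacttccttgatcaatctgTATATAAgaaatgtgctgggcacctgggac
AZGP1: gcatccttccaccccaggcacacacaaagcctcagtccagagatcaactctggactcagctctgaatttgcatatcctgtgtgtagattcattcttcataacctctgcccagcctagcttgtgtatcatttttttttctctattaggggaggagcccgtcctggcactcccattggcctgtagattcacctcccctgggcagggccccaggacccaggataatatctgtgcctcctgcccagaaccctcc
On either strand, 3 motifs were searched. Among them were TGTTTAC, a forkhead motif of the class FOXA1 binds, and TATANAA, a core promoter element. The other was AGAACA, a hexamer bound by steroid receptors such as the glucocorticoid receptor. SCGB2A2 held TGTTTAC, beginning 102 bases before the start. PIP held AGAACA beginning 198 bases and TATANAA beginning 30 bases before the start. No match lay in these windows of SCGB1D2 and AZGP1. Among 35116 RefSeq windows of the same length, TGTTTAC was in 2.98%, AGAACA in 12.4% and TATANAA in 8.41%, and a match is a description of the letters only.

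Those 4 genes were all highest in mouse 1-5. SCGB2A2 was at 2381, 1968, 8880.2, 2670.0 and 2791 TPM, so mouse 1-5 had 3.18 times the level of the next mouse. SCGB1D2 was at 350.4, 295, 1769, 473 and 322 TPM. AZGP1 was at 1106, 1766, 4967, 1466 and 2543 TPM, with mouse 1-9 next below. PIP, the prolactin-induced protein of apocrine secretion, was at 32.5, 46.9, 493, 46.6 and 84.1 TPM. In each case the other 4 mice did not reach the level of mouse 1-5, and in each they still differed among themselves without it (adjusted p = 8.96e-05 for SCGB2A2, 2.59e-04 for SCGB1D2, 4.52e-08 for AZGP1 and 1.09e-05 for PIP, limma F test). Without mouse 1-5 the means were 2452 ± 366 TPM for SCGB2A2, 360.1 ± 78.7 for SCGB1D2, 1720.3 ± 611 for AZGP1 and 52.5 ± 22.1 for PIP. SCGB2A1 (mammaglobin B) was at 23.5, 35.7, 62.1, 49.4 and 40.8 TPM, MUCL1 at 69.2 ± 15.6 and CD36 at 1.52 ± 0.987.

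The trefoil genes did not have this order. TFF1, the classical estrogen-induced secreted peptide, was at 1138, 671, 139, 2540 and 452 TPM. It was highest in mouse 1-6 and lowest in 1-5, an 18.3-fold range and the smallest adjusted p of all genes tested (1.89e-10), shared with AZGP1 and APOD. TFF3 was at 229, 258, 241, 491 and 261 TPM, with mouse 1-6 alone above the rest. AGR2 was at 1593, 952, 1836, 1794 and 1190.3 TPM and AGR3 at 33.3, 22.0, 66.4, 76.3 and 27.4. Both were high in mice 1-5 and 1-6, and AGR2 was high in mouse 1-2 as well. Mice differed in all 12 tested members of the list, and in 11 without mouse 1-5, when the adjusted p of LTF was 0.247.

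Among nuclear receptors for steroids, ESR1 was the most abundant. The estrogen-related receptor gene ESRRA was at 36.8 ± 3.40 TPM and the progesterone receptor gene PGR (chr11:101029624-101130524), itself induced by estrogen, at 12.3, 21.8, 14.5, 30.2 and 33.6. PGR was high in mice 1-6 and 1-9. NR3C1, the glucocorticoid receptor gene, was at 13.2 ± 1.201 (adjusted p = 0.0951). The second estrogen receptor gene ESR2 was at 0.240 ± 0.123, the mineralocorticoid receptor gene NR3C2 at 1.47 ± 0.673 and ESRRG at 0.522 ± 0.158. Neighbours in this order whose ranges over mice overlapped were ESRRA with PGR, PGR with NR3C1, and ESRRG with ESR2. Mice differed in 4 of the 6 tested members, among them ESR1, PGR and NR3C2, with NR3C2 not reaching the filter without mouse 1-5.

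The coregulators that receptors recruit were at similar levels, between 18.0 ± 5.64 TPM for NCOA1 and 76.8 ± 20.7 for GREB1, with the corepressor gene NCOR1 (59.8 ± 13.1), the coactivator genes NCOA3 (34.5 ± 6.72) and NCOA2 (24.4 ± 4.99) and the acetyltransferase genes CREBBP (32.9 ± 3.02) and EP300 (22.5 ± 2.54) between. Mice differed in all 8, with and without mouse 1-5. Other hormone and cytokine receptors were led by RXRA (74.1 ± 7.38), RARA (71.5 ± 10.7) and the prolactin receptor gene PRLR (56.9 ± 7.93), then THRA (43.3 ± 4.03), IL6ST (19.6 ± 7.05), THRB (16.1 ± 3.87), the growth hormone receptor gene GHR (10.7 ± 3.38), VDR (8.57 ± 1.48) and the oxytocin receptor gene OXTR (3.27 ± 1.14). The calcitonin receptor gene CALCR was listed at 0 in all libraries. All 9 tested differed between mice, and 8 did so without mouse 1-5.

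Estrogen receptor targets were broadly present, 24 of 25 at 1 TPM or more in every mouse, with a median of means of 63.5 TPM. The exception was KRT13, at 0.149 ± 0.171. Mice differed in all 24 tested and in 23 without mouse 1-5. Mouse 1-6 was the highest for 17 of 24, for 19 under median-of-ratios scaling and for 17 under quantile normalization, while over all genes that differed it was the highest for 15.0% as deposited and for 22.7% and 19.4% under those scalings. PDZK1, a scaffold protein induced by estrogen, was at 22.7, 15.7, 20.9, 95.0 and 15.6 TPM. GREB1 was at 69.7, 65.5, 88.5, 106 and 53.9 TPM, and RARA at 66.7, 68.4, 61.8, 89.6 and 70.9. Both were highest in mouse 1-6, which had one of the lowest ESR1 levels. The cathepsin gene CTSD (413 ± 66.3), IGFBP4 (111 ± 29.4), SIAH2 (41.8 ± 8.76), SLC7A2 (38.8 ± 6.42), CELSR2 (31.2 ± 6.68), IL17RB (19.2 ± 5.41), NRIP1 (13.9 ± 3.35), SUSD3 (7.34 ± 3.45), the growth factor gene AREG (6.07 ± 2.76) and the chemokine gene CXCL12 (2.32 ± 1.84) were also highest there. The members that were highest in mouse 1-5 instead were XBP1, IGFBP5 at 175, 268, 714, 242 and 446 TPM, STC2 at 7.93, 7.97, 37.6, 18.0 and 18.9, and CA12 at 215, 143, 243, 170.3 and 144. PGR and RERG (147 ± 31.1) were highest in mouse 1-9 and ABCA3 (122 ± 9.31) in mouse 1-2. With 5 mice a correlation between ESR1 and its targets is not given.

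A set of 12 genes known to respond to androgen or glucocorticoid was chosen after the values were seen, and no test of the set was made. FKBP5 (chr6:35573585-35728583), a chaperone gene induced by both hormones, was at 16.7, 25.01, 211, 40.8 and 40.5 TPM. APOD (chr3:195568702-195584205), a lipid carrier, was at 98.3, 116, 916, 122 and 143 TPM. ZBTB16 was at 0.0600, 0.0950, 16.7, 0.190 and 0.440, and the kinase gene SGK1 at 0.425, 0.410, 12.1, 0.670 and 0.60 TPM. In all 4, mouse 1-5 stood alone at the top. ZBTB16 and SGK1 did not pass the filter of 1 TPM in 3 mice and were not tested. TSC22D3 was at 166, 171, 222, 188 and 187 TPM and the clock gene PER1 at 5.80, 4.18, 14.6, 4.64 and 5.25. The prostate kallikrein genes KLK2 and KLK3 were listed at 0 throughout, and TMPRSS2 (2.10 ± 0.400, adjusted p = 0.173) and STEAP4 (0.689 ± 0.349) were low. NR3C1 itself was not highest in mouse 1-5 (13.9 TPM there).

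**Figure D3:**
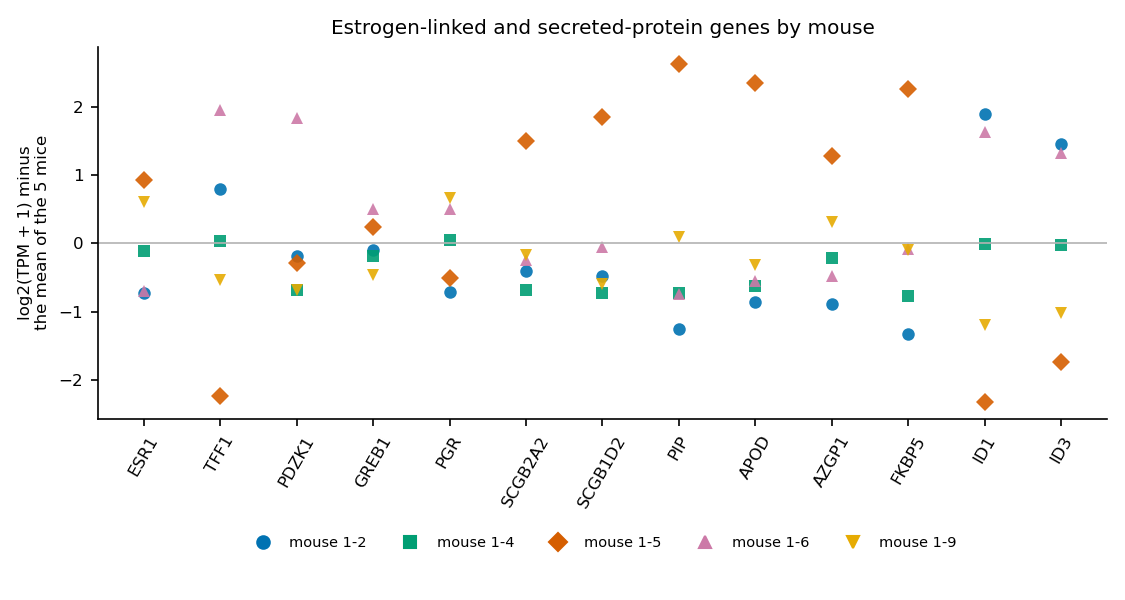
Difference of log2(TPM + 1) from the mean of the 5 mice for 13 genes linked to estrogen, secretion or inhibitor-of-DNA-binding proteins (1 symbol per mouse). Mouse 1-5 lies above the others for SCGB2A2, SCGB1D2, PIP, APOD, AZGP1 and FKBP5 and below them for TFF1, ID1 and ID3, and mouse 1-6 is the highest for TFF1, PDZK1 and GREB1.

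The ID genes encode inhibitors of helix-loop-helix factors and are known targets of bone morphogenetic protein signals. This group too was chosen after its values were seen. ID1 (chr20:31605283-31606515) was at 25.3, 6.01, 0.415, 21.1 and 2.10 TPM. It was the most variable among genes called by the F test with a mean of at least 5 TPM. ID3 had the same order of mice at 50.8, 17.4, 4.65, 46.0 and 8.23. ID2 was at 107, 77.5, 49.7, 72.8 and 79.9. All 3 were highest in mouse 1-2 and lowest in 1-5, and without mouse 1-5 the adjusted p was 4.82e-05 for ID1, 1.80e-06 for ID3 and 8.78e-04 for ID2. ID4 was at 0.309 ± 0.112. The feedback inhibitor SMAD7 was at 21.6 ± 3.44 TPM and highest in mouse 1-5, while SMAD6 was at 2.64 ± 0.898.

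Receptors of the ERBB family were led by ERBB2 (chr17:39687914-39730426), which encodes HER2, at 345, 390.1, 500.3, 279 and 368 TPM. Its partner ERBB3 was at 153, 200, 238, 127 and 211 TPM. Both were highest in mouse 1-5 and lowest in 1-6. ERBB4 was at 3.18 ± 0.726 and EGFR at 2.17 ± 0.834 (adjusted p = 0.281). Genes next to ERBB2, which rise with it when the locus is amplified, were at 37.2 ± 5.14 (GRB7), 38.2 ± 4.97 (STARD3), 41.5 ± 13.4 (PGAP3), 199 ± 15.6 (MIEN1) and 0.656 ± 0.132 TPM (TCAP). Of the ligands, EGF was at 6.79, 8.20, 28.1, 7.06 and 11.03, with mouse 1-5 apart. TGFA was at 6.404 ± 1.81, NRG1 at 2.95 ± 0.60 and BTC at 1.59 ± 0.777, and NRG3, HBEGF, NRG4, NRG2 and EREG were all below 1 TPM on average. Mice differed in 7 of 9 tested members of the family, and in 5 of 9 without mouse 1-5.

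FGFR4 was the most abundant of the other 15 receptor tyrosine kinase genes at 346, 365, 381, 260.4 and 304 TPM, followed by the collagen receptor gene DDR1 (255 ± 24.5), FGFR1 (126 ± 11.3, adjusted p = 0.0517) and EPHB4 (90.6 ± 12.2). FGFR3 (19.0 ± 2.47), MST1R (14.6 ± 2.88), IGF1R (12.6 ± 1.55), FGFR2 (11.3 ± 4.80), MET (8.86 ± 1.30) and INSR (7.43 ± 1.29) were lower by an order of magnitude or more than FGFR4. RET was at 1.08 ± 0.727, and KIT, PDGFRA, PDGFRB and ROR1 did not reach 1 TPM in any mouse. The ranges of FGFR4 and DDR1 overlapped, those of FGFR4 and FGFR1 did not. Mice differed in 8 of 10 tested, and in 6 without mouse 1-5.

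The machinery that takes cells from G1 into S phase was dominated by CDK4 and cyclin D1. CDK4 (chr12:57747727-57756013) was at 276, 279, 278, 330 and 282 TPM, with mouse 1-6 above a tight group of 4. CCND1 (chr11:69641087-69654474) was at 295, 237, 259, 301 and 222 TPM. CDK6 (chr7:92604921-92836594), the kinase that can stand in for CDK4, was at 0.390, 0.155, 0.0300, 0.240 and 0.0750, below 1 TPM in every mouse. Of the other D cyclins, CCND3 was at 31.4 ± 3.36 TPM and CCND2 was listed at 0 in all libraries. RB1 was at 33.7, 31.1, 31.0, 32.6 and 33.9 TPM and did not pass the test (adjusted p = 0.402), while its relatives RBL2 and RBL1 were at 56.6 ± 5.02 and 6.27 ± 1.01. Inhibitors of CDK4 and CDK6 were modest, with CDKN2C at 19.6 ± 1.26, CDKN2D at 18.6 ± 3.46, CDKN2A at 15.2 ± 5.24 and CDKN2B at 4.13 ± 0.573. CDKN1B was at 91.1 ± 9.20 TPM and CDKN1C at 1.12 ± 0.525. CDKN1A, which encodes p21, varied more, at 113, 91.9, 38.5, 109 and 59.9 TPM, lowest in mouse 1-5. For the next step of the cycle CDK2 (34.5 ± 1.69), CCNE2 (13.3 ± 1.17) and CCNE1 (12.6 ± 1.82) did not pass the test, at adjusted p of 0.365, 0.306 and 0.0560, nor did E2F3 (6.48 ± 0.706). E2F1 was at 60.8, 42.9, 63.3, 58.3 and 39.8 TPM, E2F4 at 51.2 ± 6.66, E2F2 at 10.1 ± 1.93 and CDK1 at 63.9 ± 9.44. In all, mice differed in 14 of 21 tested members of this list, or 12 of 20 without mouse 1-5.

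Proliferation markers were expressed throughout: all 25 were at 10 TPM or more in every mouse, with a median of means of 72.7. MKI67, which encodes the Ki-67 antigen, was at 58.2, 46.1, 36.2, 46.5 and 42.1 TPM, TOP2A at 118, 96.1, 68.2, 130.0 and 101 and UBE2C at 255, 244, 202, 289 and 244. All 3 were lowest in mouse 1-5. Over the list, mouse 1-6 was the highest for 18 of 25 and mouse 1-5 the lowest for 16 of 25 in TPM. The first count was 20 under median-of-ratios scaling and 22 under quantile normalization. Over all genes that differed, mouse 1-6 was the highest for 15.0% as deposited and for 22.7% and 19.4% under those scalings. Mouse 1-5 was the lowest for 28.2% of them as deposited. TYMS (127 ± 20.2), PTTG1 (136 ± 21.3) and CCNA2 (31.3 ± 7.19) were highest in mouse 1-6 and lowest in 1-5. PCNA (117 ± 18.1) was lowest in mouse 1-4. The replication licensing genes MCM5 and MCM6 were the 2 exceptions with mouse 1-5 at the top, MCM5 at 75.1, 61.0, 98.0, 76.7 and 65.8. All 25 differed between mice with and without mouse 1-5, but no member varied by as much as 2-fold. Of 14 p53 targets, all were present, 9 were highest in mouse 1-2 and 9 lowest in 1-5. Over all genes tested, mouse 1-2 was the highest for 18.5% and mouse 1-5 the lowest for 24.9%. Of the 14 targets, 9 differed between mice (6 without mouse 1-5). Besides CDKN1A these included BAX (113 ± 14.5), GDF15 (6.28 ± 2.85) and TP53I3 (28.1 ± 6.45), while MDM2, at 108 ± 7.62 TPM, did not pass the test (adjusted p = 0.169).

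**Figure D4:**
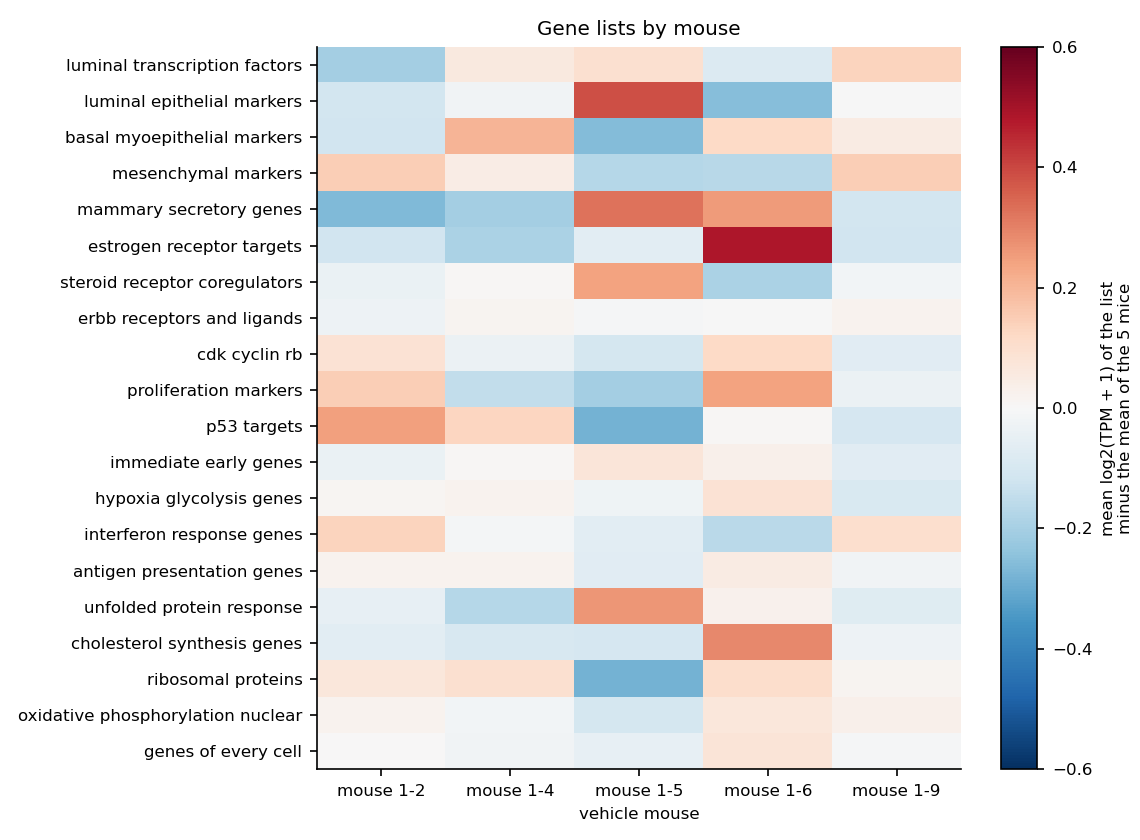
Mean log2(TPM + 1) of each gene list in each vehicle mouse, less the mean of the 5 mice (color scale). Estrogen receptor targets and cholesterol synthesis genes are highest in mouse 1-6, luminal epithelial markers and the unfolded protein response in mouse 1-5, and ribosomal proteins and p53 targets are lowest in mouse 1-5.

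Several states of the cell were read from further lists. Chaperones and enzymes of the unfolded protein response, the program by which the endoplasmic reticulum copes with secretory load and in which XBP1 acts, were abundant, with CALR at 630.2 ± 114 TPM, HSP90B1 at 540 ± 53.4, CANX at 440 ± 30.3 and ATF4 at 337 ± 34.7. Mouse 1-5 was the highest for 11 of 14, for 9 under median-of-ratios scaling and 10 under quantile normalization. Over all genes that differed its shares of highest values were 41.4% as deposited and 39% and 35.5% under those scalings. HSPA5, the central chaperone of that compartment, was at 198, 180, 306, 252 and 216 TPM and PDIA4 at 108, 119, 188, 137 and 130. ATF4 and DDIT3 (22.6 ± 5.04), of another arm of the response, were lowest in mouse 1-5. All 14 differed between mice and 13 did so without mouse 1-5.

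Cholesterol synthesis genes were all at 10 TPM or more in every mouse, among them FDPS (319 ± 74.6), PMVK (203 ± 11.9) and FDFT1 (107 ± 13.0). Mouse 1-6 was highest for 12 of 16 in TPM and for 13 under either scaling. Over all genes that differed it was highest for 15.0% as deposited, 22.7% under median-of-ratios scaling and 19.4% under quantile normalization. FDPS was at 305, 307, 241, 443 and 299.6 TPM and DHCR7 at 80.7, 80.3, 60.3, 120.0 and 76.4. SQLE and PMVK were instead highest in mouse 1-5, and FDFT1 in mouse 1-9. All 16 differed between mice, and 15 without mouse 1-5.

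Glycolytic genes were among the most abundant, ALDOA at 3259 ± 305, TPI1 at 1458 ± 176 and ENO1 at 701 ± 77.1 TPM besides GAPDH, whereas the hypoxia marker CA9 was at 0.171 ± 0.185 and ADM at 0.363 ± 0.128. LDHA was at 472, 350, 327, 506 and 350 TPM, high in mice 1-2 and 1-6. NDRG1, a stress-induced gene, was at 25.6, 30.5, 62.3, 22.2 and 27.2, with mouse 1-5 apart. Mice differed in 14 of 18 tested and 13 without mouse 1-5. Nuclear genes of oxidative phosphorylation were all at 10 TPM or more, led by COX7C (1183 ± 123) and the synthase genes listed as ATP5A1 (756 ± 63.0) and ATP5B (682 ± 67.8), and 16 of 23 differed between mice, 15 without mouse 1-5. Their median ratio of highest to lowest mouse was 1.25, against 1.35 for 25 ribosomal protein genes, of which 25 differed between mice with mouse 1-5 and 15 without it.

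Immediate early genes, which rise within minutes of a stimulus, were led by MYC at 157, 178, 123, 196 and 156 TPM. JUND (62.0 ± 9.34), ZFP36 (60.9 ± 12.8) and IER2 (44.0 ± 3.46) followed, while FOS, FOSB and EGR1 were at 1.32 ± 0.502, 1.12 ± 0.140 and 1.33 ± 0.529. EGR3, which estrogen induces, was at 3.50, 3.34, 2.39, 14.6 and 3.02 TPM, with mouse 1-6 apart. IER3 was at 64.3, 25.1, 21.0, 41.1 and 15.5 and the orphan receptor gene NR4A1 at 9.85, 15.1, 32.7, 11.2 and 12.4. Mice differed in 12 of 16 tested, with and without mouse 1-5.

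Interferon-induced genes were low, with a median of means of 1.74 TPM. OAS3 (30.5 ± 3.56), OAS1 (12.3 ± 2.59) and IFI6 (11.95 ± 3.68) were among the highest. IFI44, IFI44L, IFIT3 and RSAD2 were under 0.1 TPM on average, and XAF1 was listed at 0. Mice differed in 6 of 11 tested and in 2 without mouse 1-5, among them IRF9 (3.12 ± 2.02). In the antigen presentation list, B2M was at 313 ± 33.9 TPM, HLA-C at 98.4 ± 4.13, TAPBP at 73.9 ± 8.23, HLA-E at 50.5 ± 3.41 and HLA-B at 26.9 ± 2.41. Class I genes are closely alike and polymorphic, so reads may be split between them and their separate levels are uncertain. The class II genes HLA-DRA and HLA-DRB1 and the invariant chain gene CD74 were below 1 TPM on average. Mice differed in 6 of 11 tested.

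Human markers of other cell types were low. The table reports human symbols only, and whether reads of host cells were counted under them was not tested. The host cells of these tumors are from mice, so low human markers do not show how many host cells of a type were present. In bulk tissue, fewer cells of a type and less RNA per cell cannot be told apart. The summed level of 11 fibroblast markers was 7.92 to 13.3 TPM per mouse, nearly all of it COL1A1 (9.93 ± 2.46), with DCN and POSTN listed at 0. The sum of 10 endothelial markers was 1.03 to 2.29 TPM, of 14 leukocyte markers 4.17 to 6.78, of 6 adipocyte markers 0.625 to 1.26 and of 5 erythroid markers 0 to 1.24. CDH5 and TIE1 of endothelium, CD3D, CD3E, NKG7, TYROBP and AIF1 of leukocytes, and ADIPOQ, LEP, FABP4 and LPL of fat were listed at 0 in all libraries. Of 26 markers of other organs, 22 were below 1 TPM in every mouse and 9 were listed at 0, including INS, CDX2 and CHGA, and SYP, a vesicle protein gene, was the highest at 9.64 ± 2.91.

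The muscle list was the exception, through a single member. MB, the oxygen-binding myoglobin gene, was at 138, 237, 311, 170.0 and 263 TPM and differed between mice with and without mouse 1-5 (adjusted p = 6.52e-07 and 1.34e-05). The other 6 muscle markers were at 1.08 TPM or less in every mouse, and TNNT3 was listed at 0. In mouse 1-2 MYH2 was at 1.08 and MYH7 at 0.580 TPM, against at most 0.150 and 0.0250 elsewhere. Cancer-testis genes, which are silent in most adult tissues, were mostly absent: 13 of 18 were below 1 TPM in every mouse and 7 were listed at 0, among them MAGEB2, CTAG1B, SSX1 and SSX2. The exceptions were MAGEA6 (76.8 ± 6.19, adjusted p = 0.0624), PRAME (52.3 ± 5.99), CTAG2 at 41.1, 19.98, 2.97, 36.3 and 12.5, MAGEC2 at 23.2, 11.8, 6.26, 18.9 and 11.2, and MAGEA3 (2.02 ± 1.08). MAGEA3 and MAGEA6 are near-identical, so their separate levels are uncertain. CTAG2 and MAGEC2 were both highest in mouse 1-2 and lowest in 1-5.

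Over all 13353 genes the median SD between mice was 0.175 on the log2(TPM + 1) scale, against a median of 0.103 between libraries of a mouse. It was 0.150 over the 4 mice other than 1-5. A 2-fold or greater range between the highest and the lowest mouse was found for 2045 genes (15.3%), and 93 genes had an SD over 1. The spread between mice fell with level from a median of 0.245 for genes at 1 to 5 TPM to 0.135 at 100 to 1000 TPM, but was 0.172 for the 132 genes above 1000 TPM. The spread between libraries fell throughout, from 0.190 to 0.0429. The share of genes that differed between mice was 33.2% in the lowest of these classes and 95.5% in the highest. Of the genes that differed, mouse 1-5 was the highest for 41.4% and the lowest for 28.2%, and mouse 1-6 the lowest for 40.1%. The values of mouse 1-6 had a median deviation of -0.083 from the mean of the 5 mice as deposited and of -0.003 after median-of-ratios scaling. For the same genes its share of lowest values was 28.6% after that scaling and 30.5% after quantile normalization, and mouse 1-5 was the highest for 39.0% and 35.5%. As deposited, mouse 1-4 was the highest or the lowest for 18.4%, the smallest share of the 5.

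**Figure D5:**
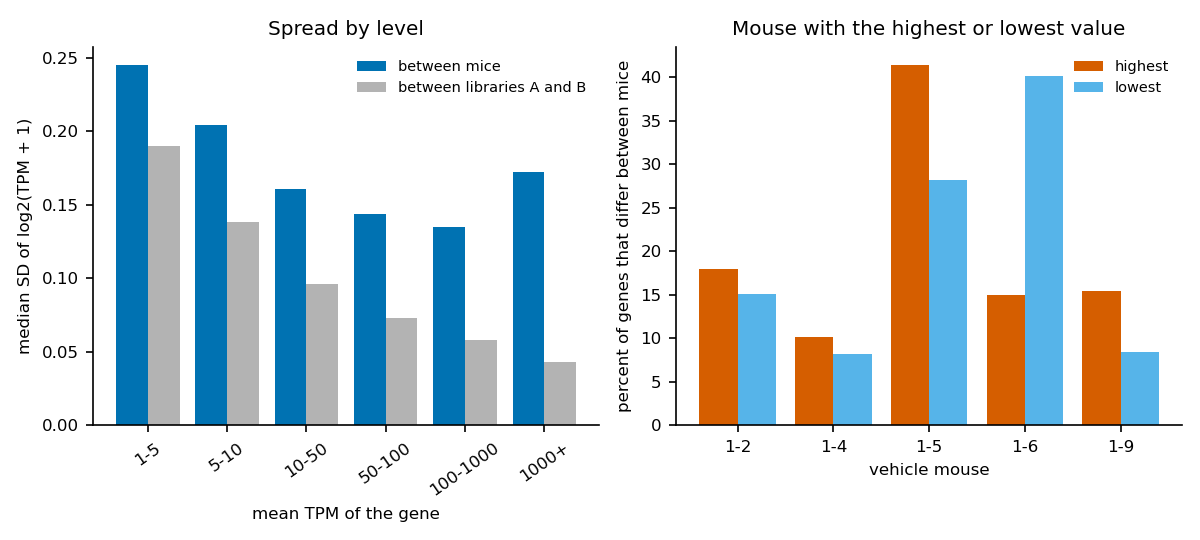
Left, median SD of log2(TPM + 1) between the 5 mice and between libraries of a mouse, for 6 classes of genes by mean TPM. Right, percent of the 7299 genes that differed between mice for which each mouse had the highest or the lowest value: as deposited, mouse 1-5 was the highest for 41.4% and mouse 1-6 the lowest for 40.1%, the latter 28.6% after median-of-ratios scaling.

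Among genes called by the F test with a mean of at least 5 TPM, the 20 most variable included 11 that were highest in mouse 1-5. They were PIP, ZNF689, PNMT, PLLP, SLC2A14, PSCA, SYBU, VGLL1, KCNMA1, GSTM3 and SFTPA2. Of the 72 such genes with an SD over 1, mouse 1-5 was the highest for 43.1%. The filter on the mean takes in mouse 1-5. Without that mouse VGLL1 (mean 2.34 TPM), SLC2A14 (2.555) and PNMT (3.20) were below it. The zinc finger gene ZNF689 was at 11.8, 15.1, 198, 12.6 and 17.8 TPM, the potassium channel gene KCNMA1 at 10.3, 10.6, 89.3, 6.74 and 11.9 and the prostate stem cell antigen gene PSCA at 6.71, 9.29, 57.8, 2.83 and 15.7. Without mouse 1-5, ZNF689 (adjusted p = 0.0117), KCNMA1 (0.0127) and PSCA (3.28e-05) were still called, while PNMT (0.122) and VGLL1 (0.0731) were not. Another group was high in mouse 1-2: the myosin gene MYH13 at 39.6, 1.03, 1.46, 3.17 and 2.59 TPM, FHL1, a LIM protein of muscle, at 37.0, 2.33, 3.33, 3.40 and 4.29, and CLEC3A at 20.9, 2.48, 0.300, 5.89 and 1.44. For these genes the filter on the mean takes in mouse 1-2. In the other mice MYH13 and FHL1 stayed below 5 TPM, so they passed that filter only through mouse 1-2. Apart from mouse 1-2, CLEC3A was above 5 TPM only in mouse 1-6. Without mouse 1-2 the difference in MYH13 did not pass the test (adjusted p = 0.153). TFF1 was highest in mouse 1-6, and ID1, ID3 and CTAG2 completed the named genes. The transcripts BC041856 and Z49985 were listed at 0 in a single mouse, 1-5 and 1-4 in turn, and at 6.78 to 11.8 TPM in every other. Of all entries, 5074 were at 0 in some libraries only, and 22 of these reached 10 TPM or more in another library.

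At the other end, the 10 steadiest genes with a mean of at least 50 TPM had SDs of 0.0138 to 0.0254 on the log2 scale between mice. MRPL18, a protein of the mitochondrial ribosome, was at 90.3, 89.6, 91.7, 91.0 and 89.8 TPM. The ubiquitin ligase scaffold gene CUL4A was at 72.5 ± 0.917, HNRNPA0 at 118 ± 1.51 and USP22 at 75.3 ± 1.14 TPM. MRPS18B, MRPL43 and MRPL52 were also of the mitochondrial ribosome, and DGCR6L, PRCC and DQ581019 made up the 10. They were chosen for their small spread, so no test of them is given. Of the genes often used as references, UBB was steady (1715 ± 39.9, adjusted p = 0.477), and GAPDH, ACTB (2789 ± 292) and EEF1A1 all differed between mice. Without mouse 1-5, GAPDH (adjusted p = 1.82e-04, limma F test) and ACTB (0.00142) were still called, while EEF1A1 (0.504) was not.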

How the data were processed

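RNA was sequenced from 5 vehicle tumors as 10 libraries. Values were taken as deposited, in TPM per gene, as the authors made them. FastQC, STAR, HTSeq and RSEM and the builds GRCh38 and GRCm38 are named in the submitters' processing notes, without a role for each. The treatment of mouse reads is not given in those notes. The table has 30332 entries, of which 23 carry numbers in place of symbols, and 16 library columns of other groups were not used.

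Libraries A and B were averaged per mouse. limma 3.58.1 in R 4.3.3 was fitted to log2(TPM + 1), with mouse as the factor, for 13353 genes with a mean of at least 1 TPM in at least 3 mice, with an intensity trend, 5 residual degrees of freedom and Benjamini-Hochberg adjustment at 0.05. Changes on this scale understate those of low genes. Other work used Python 3.11.15, numpy 2.4.6, pandas 2.3.3 and matplotlib 3.10.9. Tested on simulated data of 13353 genes, the fit called 94 of 100 genes shifted by 1 log2 unit in a single mouse. It called 99 of 100 shifted by 2, and 4 of 13153 that were not shifted. The shifted genes were drawn only from those with a mean log2(TPM + 1) at or above that of 5 TPM. How often a shift is found in lower genes was not tested. The letters A and B did not pair libraries across mice (correlation of deviations from -0.063 to 0.145, above 0.1 in 1 of 10 pairs). Alternatives were other filters, pseudocounts, scalings, priors, single libraries and leaving out each mouse.

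The gene groups and lists were chosen with earlier results of these data known. Genes are named as 5 defining markers, all members of the lineage, receptor and cyclin-kinase lists, and the 25 most abundant genes. From every further list at most 4 genes by mean and 4 by SD between mice are named. Among genes called by the F test with a mean of at least 5 TPM, the 20 most variable are named. The 10 steadiest with a mean of at least 50 TPM complete the rule. Named beyond that rule, after their values were seen, were SLC39A6, UBB, MKI67, MCM5, MCM6, HSPA5, PDIA4, DDIT3, SQLE, EGR1, FOS, FOSB, HLA-B, HLA-DRA, CA9, ADM, PER1, TMPRSS2, STEAP4, ID4, IFI44, IFI44L, IFIT3, RSAD2 and some genes listed at 0. Some members of the lists are counted but not reported here by name. Gene positions are those of GENCODE for GRCh38, and promoter sequences those of RefSeq.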

Additional observations from a re-analysis of the deposited data

Results flagged for a closer look

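A mouse lay far from the other 4, by Dixon's criterion for 5 values, in 38 of 251 genes named above that reach 1 TPM in some mouse (15.1%), against 952 of all 13353 genes tested (7.13%). Chance gives such a gap in about 1 group in 20 (the expected share for a single gene), and the named genes include the most variable ones, so their share is no measure of the whole. Mouse 1-5 was the far one in 26 of the 38, in 23 at the top and in 3 at the bottom.

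In mouse 1-5 the secretory and hormone-linked genes SCGB2A2 (8880 TPM), SCGB1D2 (1769), APOD (916), PIP (493), FKBP5 (211), ZBTB16 (16.7), PER1 (14.6) and SGK1 (12.1) lay far above the rest. So did KRT19 (3637), EGF (28.1), the progenitor gene ALDH1A3 (7.89), NDRG1 (62.3), NR4A1 (32.7) and IER2 (50.1). The next mouse for IER2 was at 42.7 TPM, so that gap is small in size. The variable genes ZNF689 (198), PLLP (91.3), KCNMA1 (89.3), GSTM3 (67.0), SYBU (65.3), PSCA (57.8), PNMT (40.4), SLC2A14 (30.0) and VGLL1 (25.6) made up the 23. Far below the rest in mouse 1-5 were RPS27 (13811), EEF1A1 (5426) and BC041856, which was listed at 0 there.

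In mouse 1-6 the far values at the top were TFF3 (491 TPM), CDK4 (330.0), PDZK1 (95.0), NRIP1 (19.6), EGR3 (14.6) and CXCL12 (5.53), and those at the bottom were EP300 (18.0) and SPARC (5.07). In mouse 1-2 they were the muscle-linked genes MYH13 (39.6), FHL1 (37.0) and MYH2 (1.08), and CLEC3A (21.0). Muscle markers other than MB were at most 1.22 TPM in any library, and their part in these values was not tested.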

How the results depend on the processing

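The count of 7299 genes that differed between mice stayed within 1.5 times under every alternative run, from 6474 with no intensity trend to 7384 with robust moderation, and from 5088 to 7090 when a mouse was left out, lowest without mouse 1-6. With the library letter as a replicate block it was 6751. Genes at 1 TPM in every mouse numbered 12645, or 12670 to 12816 with a mouse left out, and genes listed at 0 in all libraries 10220, or 10419 to 10559. Without ribosomal protein genes the 10, 100 and 1000 most abundant genes held 6.4, 21.6 and 54.6% of TPM, and with a mouse left out they held 7.73 to 8.09, 32.8 to 34.0 and 64.2 to 65.0%. The median SD between mice of 0.175 became 0.192 at a pseudocount of 0.1, 0.151 with no filter and 0.201 with A libraries alone, and 0.149 to 0.182 with a mouse left out. Of 3097 repeated tests of 242 named genes, 2911 kept their side of the threshold, 157 lost the call and 29 gained it, the most losses being 33 without mouse 1-6 and 28 without mouse 1-5. The cause was not tested. No direction is defined for an F test, so none could reverse. Median-of-ratios factors were 0.933 to 1.042. The shares of highest and lowest values under other scalings were added after seeing the data. The files give no counts, so the depth behind low values is unknown, and 5 mice limit the precision of each SD.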
